A study of Mus musculus with 12 samples.

Results

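Ribosome biogenesis and nucleolar genes were followed in M1-activated bone marrow-derived macrophages (BM-Mɸs). They were chosen by symbol, as every gene of the Nop, Utp, Rrp and Polr1 series in the table together with Ncl, Npm1, Fbl, Dkc1, Nolc1, Pinx1, Bysl, Wdr12, Pes1, Bop1, Gnl3, Nhp2, Gar1, Rrs1, Ifrd2, Wdr43 and Myc. The rule found 48 of 22243 genes, and 42 of the 48 had a mean over the 12 libraries of 1 TPM or more, as did 8780 genes of the whole table. TPM are estimates of transcript abundance, corrected for transcript length and scaled to a fixed total in every library. The 6 genes under that level were Myc, Nolc1, Nop53, Polr1e, Rrp1b and Utp14b. The cutoff fell between Nop53, with a mean of 0.962 TPM, and Polr1b, with 1.43 TPM. The genes were put forward with their genotype ratios in these libraries in view, so their genotype differences are given as a description and support nothing.

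The libraries came from 6 mice labelled LysMCre/ErbB4-floxxed (ErbB4myeKO) and 6 labelled ErbB4-floxxed (ErbB4FF), all C57Bl/6, with 1 mouse of each genotype from each of 6 litters. LysMCre places Cre recombinase under the lysozyme 2 locus, which is active in myeloid cells, and the floxed ErbB4 alleles were carried by both groups. Bone marrow cells grown with M-CSF were pretreated for 16 h with IFN-γ at 100 U/ml and for a further 6 h with LPS at 100 ng/ml, so that no unstimulated library stands beside them. Each library is from 1 mouse, and the labels do not give sex.

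Ribosomes are assembled in the nucleolus. RNA polymerase I transcribes the long precursor of the ribosomal RNAs there, small nucleolar RNAs (snoRNAs) guide methylation and pseudouridylation of that precursor, and large sets of assembly factors fold, cut and export the small and the large subunit. The transcription factor Myc is known for binding the sequence CACGTG, an E-box, and for driving many of these genes in growing cells. Box C/D snoRNAs, which guide methylation, are released from introns of host genes, and several of the host genes themselves encode nucleolar proteins.

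Before the results, 1 litter has to be set apart. Lyz2, whose locus carries the Cre insertion, was lower in the library labelled ErbB4myeKO than in its littermate in litters 1 to 5, with log2 ratios between -1.20 and -0.81. In litter 6 the log2 ratio was 1.43, from 7997 TPM in the library labelled ErbB4myeKO and 2964 TPM in that labelled ErbB4FF. Lyz1, its neighbouring paralog, was also reversed, at -0.94 in litter 6 against 1.41 to 2.18 in the other litters. The libraries of litter 6 thus went against their labels, and whether the pair was exchanged was not tested. Values without that litter are given for the main counts and for the genes with the largest ratios. Erbb4 itself did not separate the groups, with 0.280 to 0.852 TPM in the libraries labelled ErbB4myeKO and 0.372 to 0.716 TPM in those labelled ErbB4FF.

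The cells carried the macrophage genes the labels call for, as 8 of 8 macrophage markers had a mean of at least 1 TPM, Adgre1 at 877 TPM and Csf1r at 347 TPM. None of the 10 lymphocyte or 8 erythroid markers reached that mean. Of 12 neutrophil markers 5 did (S100a8, S100a9, Ngp, Camp and Mmp8), with means of 63.8 TPM for S100a8 and 38.1 TPM for S100a9, while Ly6g was at 0 in 8 libraries and Elane at 0 in 9. The sum of the 12 was 41.3 to 375 TPM in libraries labelled ErbB4myeKO and 42.5 to 186 TPM in those labelled ErbB4FF. The log2 ratio of this sum was 1.27 in litter 6 and between -0.16 and 0.22 in the other litters. Of 10 dendritic cell markers 3 did (Xcr1, Batf3 and Clec9a), with Siglech and Cd209a at 0 in all 12 libraries and a sum of 13.3 to 36.1 TPM in libraries labelled ErbB4myeKO and 7.61 to 28.2 TPM in those labelled ErbB4FF. The log2 ratio of that sum was above 0 in 5 of 6 litters and largest, 0.83, in litter 4. The part of these cells in the results below was not tested. Read depth is not in a table of TPM. The principal transcripts of the table made up 59.0% to 74.7% of a library's TPM, and between 10214 and 12985 genes were above 0.

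The sequences that the results on box C/D factors and their hosts refer to are shown first. GENCODE M21 (GRCm38) places 20 annotated snoRNAs inside the span of 7 of the 48 genes, which are Nop58, Ncl, Nop56, Dkc1, Wdr43, Nop53 and Gnl3. Below is 1 snoRNA from each of 4 of these hosts, Nop58, Gnl3, Ncl and Nop56, 5′ to 3′, with box C (TGATGA) and box D (CTGA), the elements that bind the Nop58, Nop56 and fibrillarin particle, in capitals. Snord11 is at chr1:59704790-59704873 (+), Snord69 at chr14:31014287-31014366 (-), Snord82 at chr1:86356261-86356330 (-) and Snord110 at chr2:130275506-130275573 (+).
Snord11, inside Nop58: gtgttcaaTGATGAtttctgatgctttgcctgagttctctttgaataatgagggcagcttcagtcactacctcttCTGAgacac
Snord69, inside Gnl3: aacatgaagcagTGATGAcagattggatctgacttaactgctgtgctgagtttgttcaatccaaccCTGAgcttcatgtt
Snord82, inside Ncl: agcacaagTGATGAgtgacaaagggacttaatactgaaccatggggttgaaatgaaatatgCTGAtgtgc
Snord110, inside Nop56: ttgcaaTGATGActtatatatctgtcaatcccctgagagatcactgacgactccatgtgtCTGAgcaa

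Promoter sequence from RefSeq (GRCm38.p6), 250 bases before to 50 bases after the start of each gene, was at hand for 37 of the 48 genes. The E-box CACGTG was in 8 of the 37 promoters (21.6%), against 8.09% of 27025 genes of the RefSeq table. Among genes that averaged 1 TPM or more it was in 7 of 33 (21.2%), against 12.5% of 6986. The 8 genes were Nop2, Utp18, Utp20, Utp4, Pes1, Rrp7a, Wdr43 and Utp14b. Parts of the Nop2 promoter, chr6:125131796-125131855 (+), and of the Utp18 promoter, chr11:93885767-93885826 (-), are shown with the E-box in capitals.
Nop2: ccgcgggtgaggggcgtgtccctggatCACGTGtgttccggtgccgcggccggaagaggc
Utp18: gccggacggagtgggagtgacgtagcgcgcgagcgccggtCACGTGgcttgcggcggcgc
Searched on both strands, CCGGAAG, the core bound by ETS factors, was in 9 of the same 33 promoters (27.3%) and in 23.2% of the 6986. TCGCGAG was in 3 (9.09%, against 5.05%) and CCAAT in 12 (36.4%, against 42.3%). None of these 3 sequences can share bases with CACGTG on either strand, and a match describes the window and not a bound site.

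In libraries labelled ErbB4FF the 42 genes had a median of 10.5 TPM, beside 9.14 TPM for all 8780 genes. On this scale, which is per transcript length, 20 of the 42 were under 10 TPM and 22 between 10 and 100 TPM. The 7 with at least 30 TPM were Utp3 (46.2 ± 6.47 TPM, SD, n = 6), Nop10 (42.5 ± 20.0), Polr1d (41.9 ± 8.96), Rrp1 (40.5 ± 12.2), Npm1 (40.1 ± 11.5), Utp11 (39.9 ± 8.55) and Fbl (30.9 ± 14.6). Neighbours in that order differed by less than 1 SD of either gene, except that the mean of Fbl lay just under the lowest value of Utp11, 31.2 TPM. The small subunit factors held the largest summed level, 239.8 TPM for 18 genes, followed by 93.1 TPM for 9 large subunit factors. Single transcripts of several genes share much of their sequence with other genes, so that pseudoalignment may have split their reads: 79.0% of the 31-mers of the Fbl transcript, 45.5% of those of Npm1, 38.2% of those of Nop56 and 34.1% of those of Pes1 occur in transcripts of other genes.

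Across the 42 genes the mean within-litter log2 ratio, (TPM + 0.5) of the library labelled ErbB4myeKO over that of its ErbB4FF littermate, was above 0 for 34 and had a median of 0.18. Among all genes tested 49.8% were above 0, and their median was -0.000679. No gene of the 42 passed an adjusted p of 0.05 for genotype in limma, as did 0.0% of all genes, and the smallest adjusted p was 0.603. At an unadjusted p under 0.05, 8 of the 42 were higher in libraries labelled ErbB4myeKO (3.83% of all genes) and 0 were lower (4.38%), with 8.21% of all genes past it in either direction, and nothing is read from these counts, since the same ratios chose the genes. The 8 were Bysl, Gnl3, Ifrd2, Nop58, Pinx1, Utp14a, Utp20 and Utp6. Without litter 6 the median was 0.17, 34 of 42 ratios were above 0 and 8 genes were again under that p, with Fbl in place of Utp6. The groups overlapped in range for all 42 genes, as 0.0456% of all genes did not.

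The height of the ratios differed between litters. The median over the 42 genes was -0.02 in litter 1, 0.56 in litter 2, 0.01 in litter 3, 0.33 in litter 4, 0.02 in litter 5 and 0.14 in litter 6 (SD between litters 0.23). Litters 2 and 4 thus held most of the difference, and litters 1, 3 and 5 were near 0. The library labelled ErbB4myeKO was the higher of the pair for 39 of 42 genes in litter 2 (52.0% of all genes) and for 38 in litter 4 (45.9%). In litter 6 it was higher for 28 (52.2%), in litter 5 for 23 (51.9%), in litter 3 for 21 (46.6%) and in litter 1 for 19 (49.6%). Without litter 2 the median ratio was 0.09, and without litter 4 it was 0.12.

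**Figure D1:**
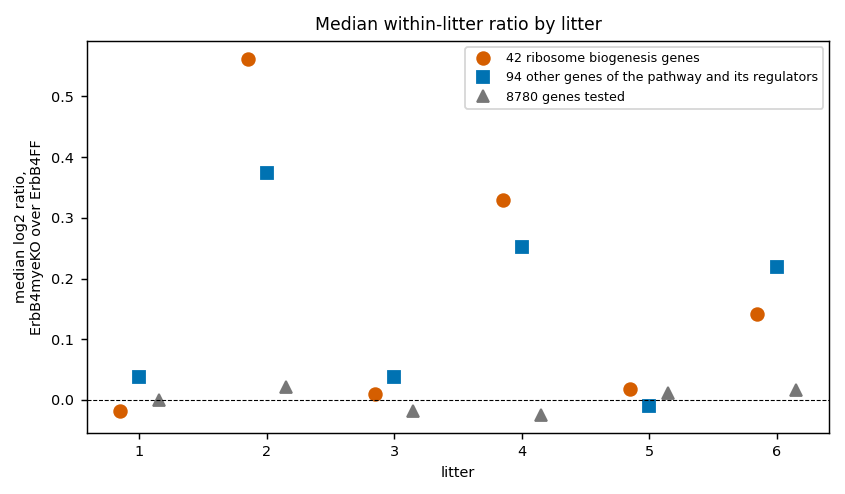
Median within-litter log2 ratio, the library labelled ErbB4myeKO over that labelled ErbB4FF (y axis), by litter (x axis), for the 42 ribosome biogenesis genes (circles), 94 further genes of the pathway and its regulators (squares) and all 8780 genes tested (triangles). The circles are at 0.56 in litter 2 and 0.33 in litter 4 and near 0 in litters 1, 3 and 5, and the squares are also highest in litter 2, at 0.37.

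The summed level of M1 activation markers moved with these litters, while the single genes did not all do so. The summed TPM of 8 M1 genes (8 of 8 with a mean of at least 1 TPM, Nos2 at 0 in 3 libraries) was 8331 to 24550 in libraries labelled ErbB4myeKO and 6873 to 22721 in those labelled ErbB4FF. Its log2 ratio was 1.33 in litter 2 and 0.72 in litter 4, against 0.21, 0.11, -0.03 and 0.28 in litters 1, 3, 5 and 6. Gene by gene, 5 of the 8 were higher in the library labelled ErbB4myeKO in litter 2 and 5 in litter 4. In litters 1, 3, 5 and 6 the counts were 6, 4, 3 and 4. The median ratio of the 8 was 0.48 in litter 2, 0.22 in litter 4 and -0.02 to 0.16 in the others. Over litters, the mean ratios of single M1 genes ran from -2.22 to 1.19. The part of M1 activation in the ratios of the ribosome biogenesis genes was not tested. The summed proliferation markers, 14 of 16 with a mean of at least 1 TPM, lay between 156 and 263 TPM in libraries labelled ErbB4myeKO and between 147 and 264 TPM in those labelled ErbB4FF, and their log2 ratio was 0.09 in litter 2 and 0.10 in litter 4. Pcna, with a mean of 160 TPM, made up most of that sum. Gene by gene, the median ratio of the 14 was 0.57 in litter 2, with 11 higher in the library labelled ErbB4myeKO. In litter 4 it was -0.21, with 3 higher, and in litters 1, 3, 5 and 6 it was -0.04, -0.39, 0.14 and 0.32. The part of proliferation in the ratios was not tested. In bulk RNA, fewer cells of a type and less RNA per cell cannot be told apart.

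Both large medians came with low levels in the ErbB4FF library of the pair. The ErbB4FF library of litter 4 was the lowest of all 12 libraries for 22 of 42 genes (52.4%), a place it held for 5.54% of all genes. Its values had a median of -0.62 on the log2 scale against the mean of each gene over the libraries, and those of the ErbB4FF library of litter 2 a median of -0.38. All genes tested had medians of 0.04 and 0.01 in these libraries. The summed level of the 42 genes was 447 TPM and 493 TPM in them and 602 to 759 TPM in the other libraries except the ErbB4myeKO library of litter 4, which had 539 TPM.

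**Figure D2:**
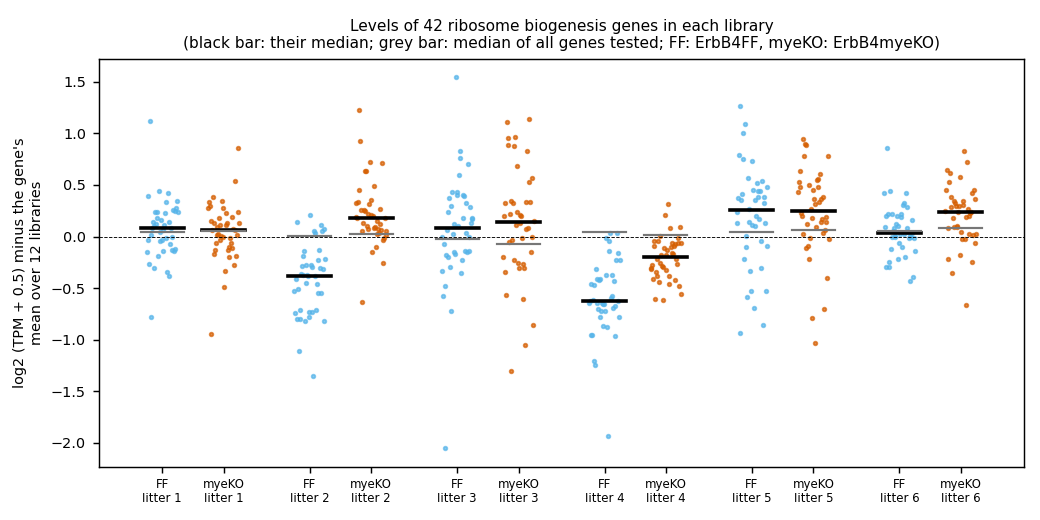
Each point is a gene, drawn as its log2 (TPM + 0.5) in a library minus its mean over the 12 libraries (y axis), for the 12 libraries by litter and label (x axis), with the median of the 42 genes as a black bar and that of all genes tested as a grey bar. The ErbB4FF libraries of litters 4 and 2 have the lowest black bars, at -0.62 and -0.38, and the ErbB4myeKO library of litter 4 is at -0.20.

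RNA polymerase I showed no common direction. Of 4 subunits with a mean of at least 1 TPM, Polr1b and Polr1a, which form the catalytic centre, had mean log2 ratios of 0.31 ± 0.60 (SD of 6 litters) and 0.16 ± 0.96. Polr1c and Polr1d, which RNA polymerase III shares, had -0.17 ± 0.38 and -0.06 ± 0.24. For Polr1d the lowest, median and highest values were 31.8, 38.1 and 50.1 TPM in libraries labelled ErbB4myeKO and 30.9, 42.6 and 55.2 TPM in those labelled ErbB4FF. For Polr1b they were 1.06, 1.62 and 2.28 TPM against 0.624, 1.30 and 2.02 TPM. Both groups covered much the same range for each, and litter 3 was the lowest ratio of Polr1a, Polr1b and Polr1c. With a litter left out, Polr1b lay between 0.16 (without litter 2) and 0.51 (without litter 3) and Polr1a between -0.11 and 0.45 for the same litters. Polr1c lay between -0.28 (without litter 4) and -0.06 (without litter 3) and Polr1d between -0.13 (without litter 4) and 0.00341 (without litter 1), with -0.03 without litter 6. Polr1e had a mean of 0.287 TPM and was not tested.

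The box C/D particle, which methylates ribosomal RNA, had 3 of 3 proteins above 0. Nop58 (chr1:59684971-59719044, +), a core scaffold protein, had 9.81, 13.7 and 21.6 TPM (lowest, median and highest) in libraries labelled ErbB4myeKO and 6.32, 9.45 and 15.7 TPM in those labelled ErbB4FF, a mean log2 ratio of 0.53 ± 0.49. Nop56 (chr2:130274430-130279313, +), its partner in the scaffold, had 13.5, 18.4 and 25.4 TPM against 9.61, 15.5 and 19.2 TPM, a mean log2 ratio of 0.32 ± 0.49. For fibrillarin (Fbl, chr7:28169710-28179269, +), the methyltransferase, the values were 24.3, 38.2 and 50.6 TPM against 16.4, 28.8 and 56.1 TPM, a mean log2 ratio of 0.37 ± 0.47. The groups overlapped for all 3, the highest Fbl value was in an ErbB4FF library, and the largest ratio was in litter 2 for Nop58 and Fbl and in litter 3 for Nop56. Without litter 2 the ratios were 0.34 for Nop58 and 0.22 for Fbl, and without litter 3 that of Nop56 was 0.17. Without litter 6 the ratios were 0.57 for Nop58, 0.33 for Nop56 and 0.47 for Fbl.

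Genes that hold snoRNAs, such as those printed above, did not keep 1 order against the other genes from litter to litter. The 6 hosts among the 42 genes had a median ratio of 0.32, and the 36 other genes one of 0.15, and without litter 6 these were 0.30 and 0.17. By litter the medians of the hosts were -0.10, 0.86, 0.63, 0.17, 0.09 and 0.31, and those of the other genes were -0.000244, 0.51, -0.02, 0.34, 0.00232 and 0.06. The hosts were thus below the other genes in litters 1 and 4 and above them in the other litters, and no test of the difference was made. All 188 genes tested that hold a snoRNA had a median of 0.01. The libraries were made from polyadenylated RNA, so the snoRNAs themselves were not measured.

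Of the 5 genes listed with the box H/ACA particle, which converts uridine to pseudouridine and is part of telomerase, 4 were above 0. Pinx1 (chr14:63860364-63919859, +), a nucleolar protein known as an inhibitor of telomerase, had 4.22, 5.81 and 7.72 TPM in libraries labelled ErbB4myeKO and 2.30, 3.804 and 4.99 TPM in those labelled ErbB4FF. Its mean log2 ratio was 0.56 ± 0.25, with the library labelled ErbB4myeKO higher in 6 of 6 litters, and 0.64 without litter 6. Dkc1, the pseudouridine synthase, had a ratio of 0.33 ± 0.38, and the core proteins Nhp2 and Nop10 had 0.13 ± 0.46 and 0.10 ± 0.28. Gar1, the remaining core protein, had the widest spread of these genes, with ratios from -2.07 in litter 1 to 1.48 in litter 3 and a mean of -0.12 ± 1.45, at 0 to 4.47 TPM in libraries labelled ErbB4FF. Some of these signs rest on 1 litter or setting. Nhp2 was -0.05 without litter 4 and 0.21 without litter 3. Gar1 was -0.44 without litter 3, 0.27 without litter 1, 0.06 without litter 5, 0.07 without litter 6 and 0.12 with a pseudocount of 0.1 TPM. Dkc1 was 0.20 without litter 6 and Nop10 was 0.04 without litter 2 and 0.17 without litter 6.

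**Figure D3:**
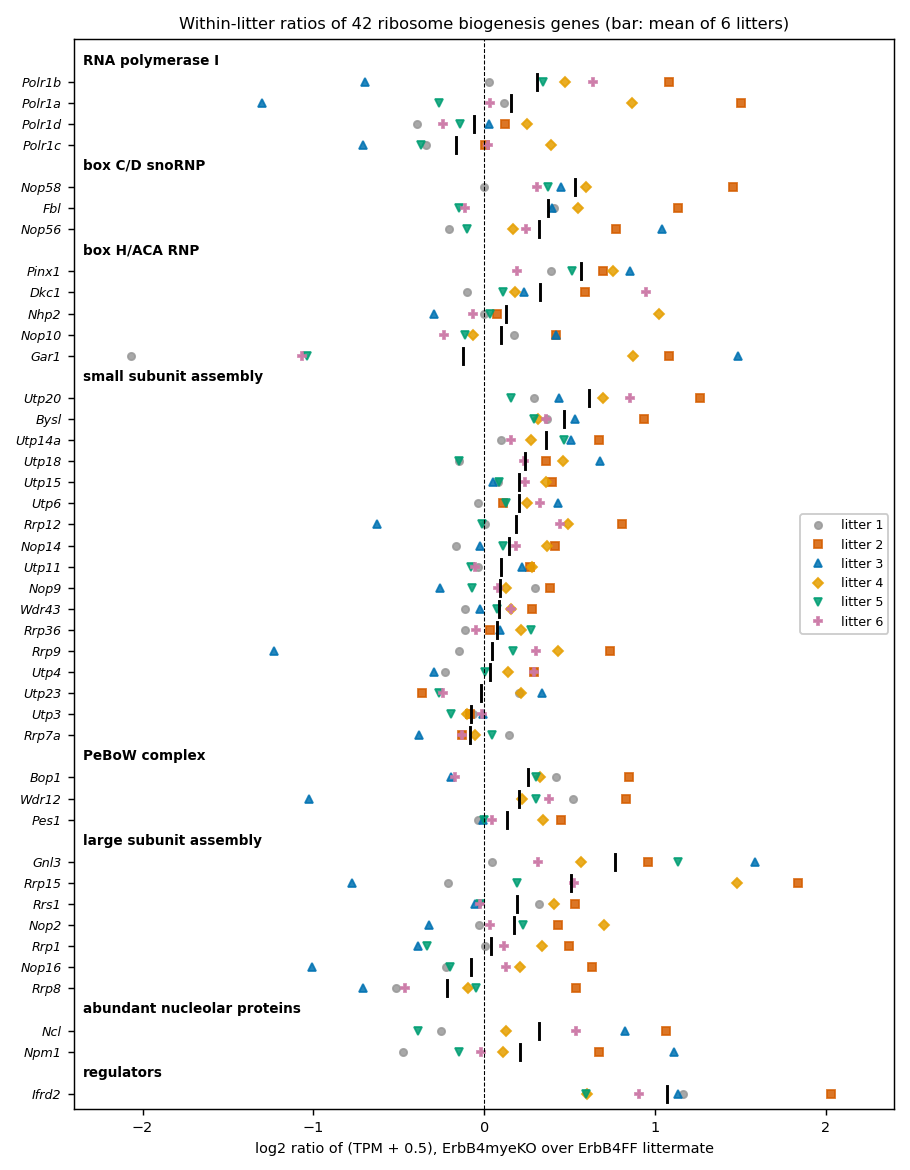
Log2 ratio of (TPM + 0.5), the library labelled ErbB4myeKO over its ErbB4FF littermate (x axis), in each of 6 litters (symbols) for the 42 genes grouped by role (y axis), with the mean over litters as a black bar. Ifrd2, Gnl3, Utp20 and Pinx1 have the largest means, from 1.07 to 0.56, and 34 of 42 bars lie above 0.

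Small subunit factors were the largest group, with 17 genes at a mean of at least 1 TPM, of which 14 were above 0 and the median ratio was 0.10. Utp20 (chr10:88746607-88826804, -), a very large processome protein, had 1.01, 2.92 and 4.90 TPM in libraries labelled ErbB4myeKO and 0.760, 1.24 and 3.48 TPM in those labelled ErbB4FF, a mean log2 ratio of 0.61 ± 0.41. Bysl, which binds late precursors of the small subunit, had 2.84, 4.48 and 5.47 TPM against 1.97, 3.16 and 4.38 TPM, a ratio of 0.47 ± 0.24. Utp14a, needed to activate the helicase that releases the U3 snoRNA, had a ratio of 0.36 ± 0.22, and Utp15 one of 0.20 ± 0.15. Without litter 6 the ratios were 0.57 for Utp20, 0.49 for Bysl, 0.40 for Utp14a and 0.19 for Utp15. In all 4 the library labelled ErbB4myeKO was higher in 6 of 6 litters, while the ranges of the groups overlapped. Together with Pinx1, Gnl3 and Ifrd2 they made up the 7 genes with that pattern, which 2.51% of all genes had. With litter 6 left out, the same 7 genes were higher in 5 of 5 litters, as were 3.9% of all genes. If the labels of litter 6 were exchanged, each of the 7 would be higher in 5 of 6. Without litter 6, 13 of the 17 small subunit ratios were above 0.

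Utp3 (chr5:88554462-88556090, +), the most abundant of the 48 genes in libraries labelled ErbB4FF, went the other way. Its values were 39.0, 43.1 and 50.8 TPM in libraries labelled ErbB4myeKO and 40.4, 45.6 and 58.3 TPM in those labelled ErbB4FF. The log2 ratio was -0.08 ± 0.07, between -0.20 and -0.01, so that it was the only 1 of the 42 genes lower in 6 of 6 litters (2.31% of all genes). In litter 6 the ratio was -0.01, and without that litter Utp3 was again the only 1 of the 42 lower in 5 of 5 litters (4.05% of all genes). Rrp7a, another processome factor, had a mean ratio of -0.09 ± 0.18, which was -0.03 without litter 3 and -0.13 without litter 1, and 25.4% of its 31-mers occur in other genes.

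Large subunit factors had 5 of 7 ratios above 0, also without litter 6, and a median of 0.17. Gnl3 (nucleostemin, chr14:31012433-31019152, -), a nucleolar GTP-binding protein of stem and proliferating cells, had 12.3, 16.1 and 28.0 TPM in libraries labelled ErbB4myeKO and 6.42, 8.87 and 14.8 TPM in those labelled ErbB4FF. Its mean log2 ratio was 0.77 ± 0.57, a 1.70-fold difference, from 0.04 in litter 1 to 1.59 in litter 3, and it was 0.86 without litter 6. The highest value of the ErbB4FF libraries, in litter 6, was above the lowest of those labelled ErbB4myeKO, in litter 4. Rrp8, a methylase of the large ribosomal RNA, had the lowest ratio of this group, -0.22 ± 0.45, with 0.847, 1.52 and 2.19 TPM against 1.14, 1.99 and 2.36 TPM. Rrp1, the most abundant of the group, had 19.0, 45.5 and 49.3 TPM against 24.2, 40.8 and 60.1 TPM and a ratio of 0.04 ± 0.35, which was -0.05 without litter 2 and 0.12 without litter 3. Rrp8 was -0.37 without litter 2 and -0.12 without litter 3.

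The PeBoW complex, which processes the precursor of the large subunit, had ratios of 0.25 ± 0.39 for Bop1, 0.20 ± 0.64 for Wdr12 and 0.13 ± 0.21 for Pes1. Without litter 2 they were 0.14, 0.08 and 0.07, without litter 3 that of Wdr12 was 0.45, and without litter 6 they were 0.34, 0.17 and 0.15. Bop1 had 14.6, 22.0 and 24.8 TPM in libraries labelled ErbB4myeKO and 11.5, 17.3 and 24.6 TPM in those labelled ErbB4FF, and Pes1 had 17.5, 23.1 and 26.2 TPM against 13.7, 23.0 and 26.1 TPM. The medians of Pes1 were alike, and its groups differed at the low end, where the ErbB4FF library of litter 4 lay.

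Of the abundant nucleolar proteins, nucleolin (Ncl, chr1:86344719-86359400, -), which binds the ribosomal RNA precursor, had 4.09, 5.96 and 10.3 TPM against 2.84, 5.005 and 7.28 TPM. Its mean log2 ratio was 0.32 ± 0.59. Nucleophosmin (Npm1, chr11:33152287-33163206, -), a chaperone of ribosome assembly, had 27.0, 42.9 and 81.7 TPM against 24.99, 41.4 and 56.7 TPM, a ratio of 0.21 ± 0.58. In both genes litters 1 and 5 were below 0 and litters 2 and 3 had the largest ratios, 1.06 and 0.82 for Ncl and 0.67 and 1.11 for Npm1. A single litter carried much of each mean, as Ncl was 0.17 without litter 2 and Npm1 0.03 without litter 3, and Npm1 was 0.35 without litter 1. Without litter 6 they were 0.27 and 0.25. Nolc1, a chaperone of snoRNA particles, was above 0 in 2 libraries and had a mean of 0.0411 TPM. Its only transcript in the table shares 99.5% of its 31-mers with other Nolc1 transcripts, and the Ncl transcript in the table has 8202 bases. The part of the choice of transcript in these levels was not tested.

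Ifrd2 (chr9:107587642-107593385, +), known for binding ribosomes that do not translate, had the largest ratio of the 42 genes. Its level was 0.887, 3.11 and 3.58 TPM in libraries labelled ErbB4myeKO and 0.413, 0.973 and 2.19 TPM in those labelled ErbB4FF. The mean log2 ratio was 1.07 ± 0.53, a 2.10-fold difference, with every litter between 0.60 and 2.03. It was 0.88 without litter 2 and 1.11 without litter 6. The lowest library labelled ErbB4myeKO, in litter 4, was below 3 of those labelled ErbB4FF, so the groups overlapped across litters. Myc was too low to be compared, at 0, 0.628 and 1.21 TPM in libraries labelled ErbB4myeKO and 0, 0.533 and 1.44 TPM in those labelled ErbB4FF, and all of its 31-mers (100%) occur in other Myc transcripts.

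**Figure D4:**
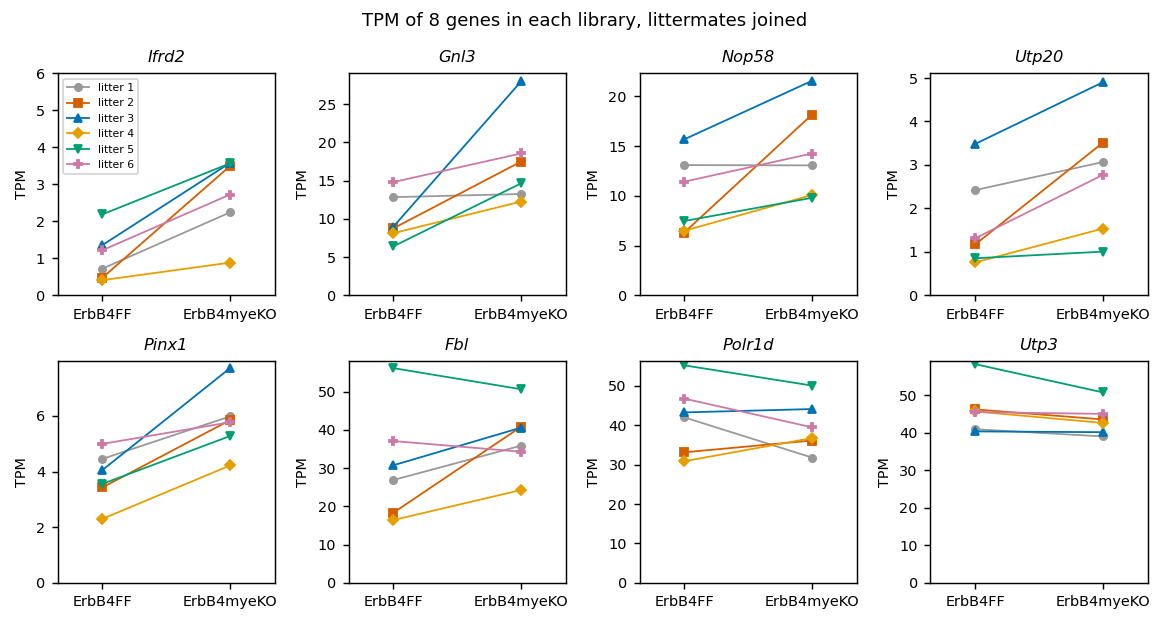
TPM (y axis) of 8 genes in the 12 libraries by label (x axis), with littermates joined by lines and each litter in its own colour and symbol. All 6 lines rise for Ifrd2, Gnl3, Utp20 and Pinx1, all 6 fall slightly for Utp3, and the lines go both ways for Fbl and Polr1d.

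The 7 tested genes with an E-box in the promoter, among them Nop2 and Utp18 printed above, had mean ratios from -0.09 (Rrp7a) to 0.61 (Utp20). Nop2, a ribosomal RNA methyltransferase, had 0.17 ± 0.36, with 0.07 without litter 4 and 0.27 without litter 3. Utp18 had 0.24 ± 0.33, and 0.15 without litter 3. Of the genes with the largest ratios, Gnl3, Ifrd2 and Nop58 have no CACGTG in the window, and Pinx1 had no promoter sequence.

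Genes of the same pathway that the rule left out were listed by role. Of 94 with a mean of at least 1 TPM, 73 had ratios above 0, with a median of 0.16. By litter the medians were 0.04, 0.37, 0.04, 0.25, -0.01 and 0.22, and they too were highest in litters 2 and 4. Without litter 6, 67 of the 94 were above 0 and the median was 0.13. At an unadjusted p under 0.05 in limma, 14 were higher (3.83% of all genes) and 1 was lower (4.38%), and none passed the adjustment. These genes are from the same contrast and libraries, so they are no independent sample of it.

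Among them, 27 of 31 further small subunit factors were above 0 (median 0.21) and 28 of 34 further large subunit factors (median 0.17), and without litter 6 the counts were 25 and 28. Diexf, a small subunit processome protein, had a ratio of 1.00 ± 0.94 and was higher in 6 of 6 litters, with a ratio of 1.10 without litter 6. Nol7 had -0.62 ± 1.25, and -0.12 without litter 3. Rpf2, which brings the 5S particle to the large subunit, had 0.47 ± 0.62. Mrto4, a factor for the ribosomal stalk, had -1.09 ± 1.82 and its median in libraries labelled ErbB4myeKO was close to 0 TPM. Of 11 further RNA polymerase I factors 7 were above 0 (6 without litter 6), from Tbp at 0.44 ± 1.89 to Taf1b at -0.39 ± 0.44, which was lower in 6 of 6 litters. Of 11 exosome genes, whose complex trims ribosomal RNA ends, 9 were above 0, from Exosc1 at 0.40 ± 0.40 to Exosc5 at -0.19 ± 0.46, and 6 were without litter 6. Leaving out a litter moved several of these means, as Tbp was -0.06 without litter 4 and 0.90 without litter 6, Taf1b -0.22 without litter 4, Mrto4 -0.71 without litter 4 and -1.69 without litter 3, Exosc1 0.27 without litter 2, and Exosc5 -0.05 without litter 3 and -0.30 without litter 1.

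Of 7 partners and antagonists of Myc, 2 had ratios above 0, also without litter 6, with a median of -0.04 and no test against the other lists. Mxd1, an antagonist that competes with Myc for its partner Max, had 10.2, 22.2 and 36.7 TPM in libraries labelled ErbB4myeKO and 10.7, 36.2 and 69.6 TPM in those labelled ErbB4FF. Its ratio was -0.67 ± 0.77, lower in 6 of 6 litters, from -2.01 in litter 2 to -0.06 in litter 3. The ratio was -0.40 without litter 2 and -0.72 without litter 6, and Mxd1 was the 1 gene under the unadjusted p on the lower side. Mlx, a partner of some Mxd proteins, had 0.52 ± 1.02, with 0.92 without litter 1 and 0.35 without litter 2.

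Differences between litters are independent of genotype in this balanced design and were not used to choose the genes. In limma's F test of litter, 12 of 42 genes (28.6%) passed an adjusted p of 0.05, against 44.9% of all genes, and without litter 6 the count was 9. They were Nop10, Rrp7a, Nhp2, Utp6, Utp14a, Rrp1, Utp20, Nop16, Pes1, Rrs1, Utp4 and Utp11. The litter means of the 42 genes spanned a median of 0.88 on the log2 scale, and those of all genes 1.12. Litter 5 weighed heavily, as without it 0 of the 42 genes passed and 11.5% of all genes did.

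Nop10 had the smallest adjusted p of litter in limma, 0.00722, with a mean of 80.01 TPM in litter 5 and 32.2 to 41.9 TPM in the other litters. Rrp7a (adjusted p = 0.00920 in limma) was 41.5 TPM in litter 5 and lowest, at 21.3 TPM, in litter 3. Nhp2 (adjusted p = 0.0177 in limma) was 25.8 TPM in litter 5 and 9.18 and 9.38 TPM in litters 2 and 4. The H/ACA core proteins Nop10 and Nhp2 thus changed between litters by more than littermates did, with the same litter at the top. Gar1 and Dkc1 of that particle did not pass (adjusted p = 0.314 and 0.119 in limma). Rrp1 ran the other way, at 21.6 TPM in litter 5 and 38.6 to 52.9 TPM in the other litters.

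Litter 4 was at the other end. It had the lowest mean of the 6 litters for 28 of 42 genes, a place it had for 10.7% of all genes, and the highest mean for 0. Litter 5 was highest for 21 of 42 genes (34.3% of all genes) and litter 3 for 13 (20.7%). The median of the 42 genes in litter 4, against the mean of each gene over litters, was -0.39 on the log2 scale, beside 0.02 for all genes. In litter 5 it was 0.28 beside 0.05. Principal transcripts held 71.4% (ErbB4myeKO) and 74.7% (ErbB4FF) of the TPM in the libraries of litter 5. In the other libraries they held 59.0% to 64.9%. As a share of principal transcript TPM, the chosen genes, with those under 1 TPM, summed to 0.104% and 0.102% in litter 5. They summed to 0.112% and 0.105% in litter 6, and to 0.0718% to 0.112% over all libraries. The part of the principal transcript share in the place of litter 5 was not tested. The summed proliferation markers, mostly Pcna, also differed between litters, with means of 178 TPM in litter 4, 151 TPM in litter 2 and 241 to 264 TPM in the others. Their part in the litter differences of the 42 genes was not tested. The 2 libraries of a litter share a number in their titles, and litter and any shared handling of its cultures cannot be told apart.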

How the data were processed

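Libraries of polyadenylated RNA from M1-activated BM-Mɸs were sequenced in single-ended reads. After pseudoalignment with kallisto, the authors deposited TPM of principal transcripts, 28808 in 29213 lines, of which 405 repeat a transcript and were counted once. The authors also deposited sleuth's mean, on a natural log scale, of normalized counts, which is not reported. The p-value, q-value and ratio columns of the authors' own comparison were not used. The submitters' processing notes name CASAVA, kallisto, sleuth and mm10, and the release of the transcriptome is not given in the sources used here.

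The TPM of a gene's transcripts were summed, and log2(TPM + 0.5) of genes averaging 1 TPM or more was fitted with limma 3.58.1 in R 4.3.3 (eBayes with trend), with genotype and litter in the model and Benjamini-Hochberg adjustment over all genes. Groups and litters were taken from the labels, which pair the libraries by litter. As a check, littermates correlated by 0.273 to 0.774 in their deviations from group means. In each litter this was more than the ErbB4myeKO library correlated with the ErbB4FF library of any other litter. ErbB4FF libraries were not checked in the same way, and libraries of the same label were not compared. A p-value of genotype measures the spread of the within-litter differences, 1 mouse of each genotype per litter. Depth per library is not known from TPM, so precision rests on the spread between litters. Positions and snoRNAs came from GENCODE M21, which held 52 of 52 transcripts of the 48 genes (51 in the same version), and promoters from RefSeq. Python 3.11.15 with numpy 2.4.6, pandas 2.3.3 and matplotlib 3.10.9 was used for the other steps. The fit was tested on simulated data.

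The genes, lists and tests were chosen with earlier results of these data known. Named genes were, in each role, the gene highest in ErbB4FF libraries and those with the highest and lowest ratio, with Myc, Ifrd2, Ncl, Npm1 and Fbl, the 3 smallest p of litter and, in each further list, the highest and lowest ratio. Other genes were named after their values were seen. Alternatives were no block, a pseudocount of 0.1 or 1 TPM, no filter or one at 5 TPM, median-ratio rescaling, limma without trend, the most abundant transcript alone and each litter left out. The counts of genes with 1 direction in every litter but litter 6 were added after seeing the data. Sex was not used, and protein sequences were not analysed here.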

Additional observations from a re-analysis of the deposited data

Results flagged for a closer look

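Dixon's test of the highest and lowest library was made on log2(TPM + 0.5) in 44 groups of 6, the 2 groups of 22 named genes, and 4 groups had a library past the 95% critical ratio of gap to range. On the TPM scale 5 groups did. Chance alone sets apart about 1 group in 20. Rrp1 was 19.0 TPM in the ErbB4myeKO library of litter 5, the lowest of its group, with a gap of 0.850 of the range on the log2 scale and 0.785 in TPM. Nop10 was 83.1 TPM in the ErbB4FF library of litter 5, with gaps of 0.817 and 0.881. Utp3 was 58.3 TPM in the ErbB4FF library of litter 5, with gaps of 0.631 and 0.673. Ifrd2 was 0.887 TPM in the ErbB4myeKO library of litter 4, with a gap of 0.632 on the log2 scale, while its gap of 0.504 in TPM was not past the critical ratio.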

How the results depend on the processing

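Without a block for the pairing of littermates, 3 of the 42 genes (Gnl3, Ifrd2 and Pinx1) rather than 8 had an unadjusted limma p under 0.05 for genotype, and 0.854% of all genes rather than 8.21%. With a mean of at least 5 TPM required, 4 did (Gnl3, Nop58, Utp14a and Utp6), as fewer of the genes were tested (31). With a litter left out the count was between 7 and 11. The count at an adjusted p under 0.05 was 0 in all 15 settings, and among all genes 1 passed in a single setting, without litter 3 (adjusted p = 0.0490 in limma). The median ratio of the 42 genes lay between 0.09 (without litter 2) and 0.21 (without litter 1) and moved by less than the SD between litters in every alternative. This bound is wide where 1 of 6 litters is left out. The count for litter, 12, became 7 with no filter, and with a litter left out it was between 0 (without litter 5) and 17 (without litter 2), with 6 without litter 4. All 267 alternative values of the ratios of named genes moved by less than their SD between litters, although the sign turned in some for Gar1, Nhp2, Polr1d and Rrp1. Leaving out 1 of 6 litters cannot move a mean by its SD between litters, and dropping the filter or the trend leaves a ratio as it is. That count was thus largely set in advance and is no measure of stability. TPM keep no read depth, and the counting error of genes near 1 TPM, such as Ifrd2, Polr1b and Gar1, was not estimated.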
